A study of Rattus norvegicus with 6 samples.

Results

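The genes of nitric oxide, natriuretic peptide and cGMP signalling were followed in cultured rat vascular smooth muscle cells given an siRNA against ANK. They were taken as the rows of the count files whose gene symbol is Gucy1a1, Gucy1b1, Prkg1, Pde5a, Pde1a, Pde1c, Pde3a, Npr1, Npr2 or Npr3. Of these 10 symbols, 9 matched a row among the 30945 genes in the files, and all 9 were among the 13016 genes that passed the filter on low counts. Prkg1 matched no row by symbol. A row with the clone-based name AABR07006724.1 is described in the files as the gene of cGMP-dependent protein kinase 1, and its values are given apart from the 9 members. The cells were primary cultures from the rat, sequenced as 6 RNA-seq libraries, of which 3 carry the genotype label siRNA_ANK and 3 the label Negative_control. No strain, sex, age, vessel, passage, siRNA sequence or treatment time is given in the labels used here, and nothing there ties a replicate to an animal or culture of its own. The p-values therefore rest on the spread between these 6 samples alone, and that spread may be technical.

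Cyclic GMP is a second messenger that relaxes vascular smooth muscle. It is made by soluble guanylyl cyclase, a heterodimer of an alpha and a beta subunit that is switched on by nitric oxide, and by the receptor cyclases NPR1 and NPR2, which are switched on by natriuretic peptides. It acts largely through cGMP-dependent protein kinase 1, and phosphodiesterases end the signal. NPR3 binds the same peptides but has no cyclase domain, and it is known as the receptor that takes them up and clears them.

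The libraries held 15641259 to 17441548 counts over genes, so that 1 count was worth less than 0.1 CPM (counts scaled to a common library size). Levels are given as CPM after TMM scaling. Ankh, the gene of the ANK protein, was 84.8, 76.6 and 120 CPM in siRNA_ANK replicates 1, 2 and 3, against 338, 351 and 367 CPM in the negative controls, 3.76-fold lower (edgeR adjusted p = 0.000180). Ankh was lower in all 3 siRNA_ANK libraries than in any control, and siRNA_ANK replicate 3 kept the most of it. Along the leading principal component (70.6% of the variance) siRNA_ANK replicate 3 (25.4) and negative control replicate 2 (-26.7) lay nearest to the other group.

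Of the 9 members, 7 rose in siRNA_ANK cells and 0 fell, and 5 rose at least 2-fold: the clearance receptor gene Npr3, the soluble cyclase subunit gene Gucy1a1, and the phosphodiesterase genes Pde1a, Pde1c and Pde5a. Gucy1b1 and Npr2 rose by less, and Pde3a and Npr1 did not pass the test. Over all 13016 genes tested, 40.1% passed in either direction at an adjusted p under 0.05, 19.9% being higher and 20.2% lower; 4.56% were called at least 2-fold higher and 2.58% at least 2-fold lower. The median log2 fold change was 1.08 over the members and 0.01 over all genes tested. No member was lower at an unadjusted p under 0.05 or by DESeq2, and DESeq2 called 6 of them higher. In 7 members every siRNA_ANK value lay above every control value, which was so for 25.7% of all genes tested. In bulk RNA, more cells that express a gene and more RNA of it per cell cannot be told apart.

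**Figure D1:**
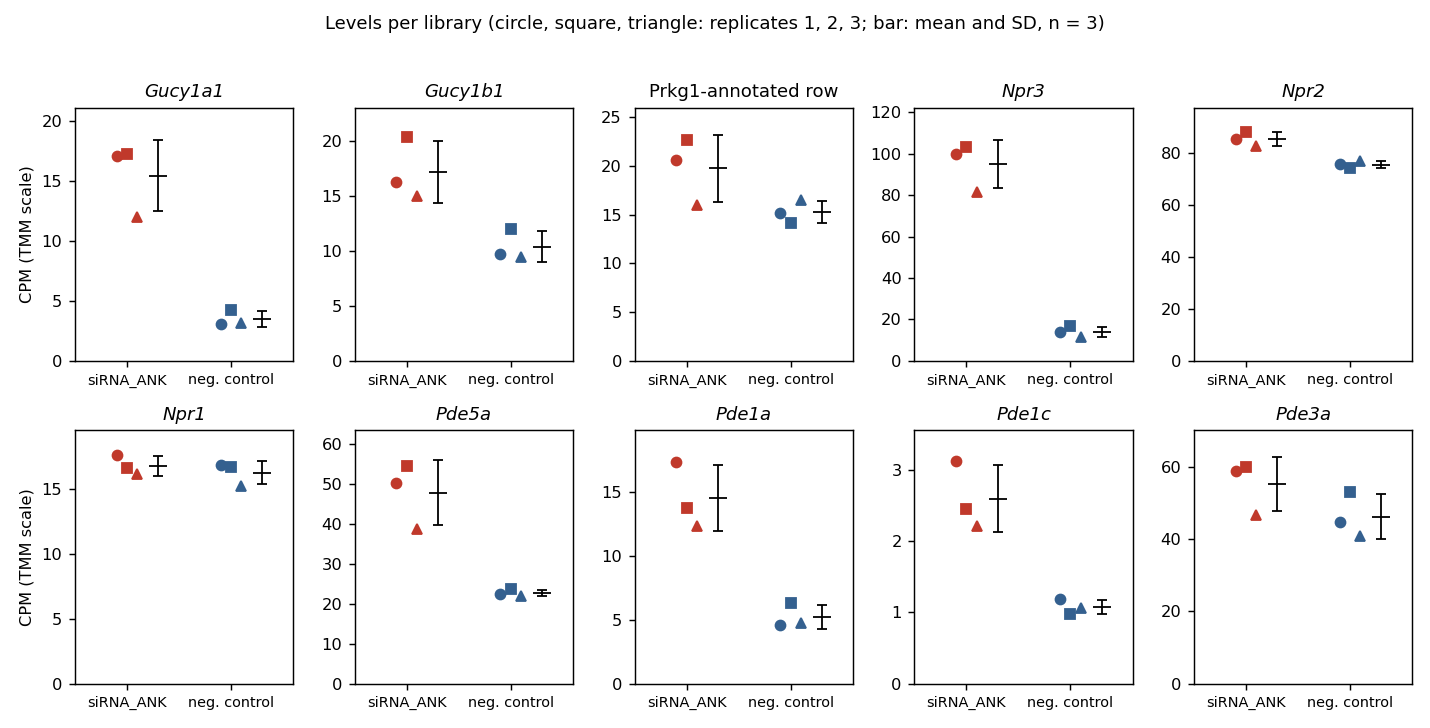
Level of each gene in each library, in CPM on the TMM scale (linear axes from 0), with siRNA_ANK libraries in red and negative controls in blue; the marker shape gives the replicate and the bar the mean and SD (n = 3 each). The groups are apart in 7 of the 9 members and overlap in Npr1, Pde3a and the row annotated as Prkg1.

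The regions upstream of 4 members are shown because the cyclase subunit genes Gucy1a1 and Gucy1b1 rose together, whereas of the natriuretic peptide receptors Npr3 had the largest fold change of all members and Npr1 the smallest. Each sequence is the 250 bases before the RefSeq start site, written 5′ to 3′ along the gene, from the rat build GRCr8, which differs from the build of the counts. Capitals mark GGGCGG (the GC box) and CCAAT, searched on both strands, so that they also appear as CCGCCC and ATTGG. All 4 lie on the minus strand, at chr2:169779624-169779873 for Gucy1a1, chr2:169696988-169697237 for Gucy1b1, chr2:62658766-62659015 for Npr3 and chr2:178247089-178247338 for Npr1.
Gucy1a1: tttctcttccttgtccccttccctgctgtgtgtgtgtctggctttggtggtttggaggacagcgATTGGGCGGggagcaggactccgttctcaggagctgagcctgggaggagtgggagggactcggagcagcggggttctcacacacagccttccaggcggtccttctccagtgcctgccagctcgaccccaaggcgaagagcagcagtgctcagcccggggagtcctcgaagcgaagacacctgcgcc
Gucy1b1: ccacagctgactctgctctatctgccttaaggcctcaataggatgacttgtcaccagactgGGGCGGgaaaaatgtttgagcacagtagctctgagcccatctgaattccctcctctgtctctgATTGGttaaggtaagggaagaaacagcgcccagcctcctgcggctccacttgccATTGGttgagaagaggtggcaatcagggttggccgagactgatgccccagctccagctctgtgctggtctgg
Npr3: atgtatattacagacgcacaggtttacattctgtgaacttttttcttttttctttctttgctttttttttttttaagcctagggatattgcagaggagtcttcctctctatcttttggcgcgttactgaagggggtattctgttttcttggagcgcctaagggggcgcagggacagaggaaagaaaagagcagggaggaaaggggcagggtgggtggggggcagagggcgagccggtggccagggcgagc
Npr1: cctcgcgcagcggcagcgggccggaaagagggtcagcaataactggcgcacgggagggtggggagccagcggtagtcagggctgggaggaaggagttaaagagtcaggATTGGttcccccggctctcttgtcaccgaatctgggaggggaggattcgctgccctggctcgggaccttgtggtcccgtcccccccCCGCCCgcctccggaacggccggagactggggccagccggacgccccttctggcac
Promoters were found for 9 of the 10 listed symbols. GGGCGG was present upstream of 4 of these 9 (Gucy1a1, Gucy1b1, Npr1 and Pde5a) and of 30.5% of 33465 RefSeq promoters of the same length. CCAAT was present upstream of 3 (Gucy1a1, Gucy1b1 and Npr1) and of 34% of all promoters. In Gucy1a1 the 2 motifs overlap. The Npr3 window held neither. The CArG box, the site of serum response factor, TATAAA and TGACGTCA were in none of the 9 windows, against 1.5%, 12.9% and 1.59% of all promoters. The start sites used in these cells were not measured.

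Both subunit genes of soluble guanylyl cyclase rose, and the alpha subunit gene rose more. Gucy1a1 (ENSRNOG00000012302, chromosome 2, 167418640 to 167481671, minus strand, build mRatBN7.2) was 17.1, 17.2 and 12.0 CPM in siRNA_ANK replicates 1, 2 and 3, against 3.09, 4.26 and 3.12 CPM in the negative controls. The lowest siRNA_ANK value was still above the highest control value. The means were 15.4 ± 2.96 and 3.49 ± 0.665 CPM (SD, n = 3 each), 4.42-fold higher (log2 fold change 2.14, SE 0.18, edgeR adjusted p = 4.64e-07); later log2 fold changes are likewise given ± SE. Gucy1b1 (ENSRNOG00000012060, chromosome 2, 167348825 to 167398916, minus strand), whose product carries the haem that binds nitric oxide, was 16.3, 20.4 and 15.0 CPM in siRNA_ANK, against 9.72, 12.0 and 9.43 CPM in the controls. The groups did not overlap, and the log2 fold change was 0.73 ± 0.14 (1.66-fold, edgeR adjusted p = 0.000633). The pair lies in tandem on the same strand, 19723 bases apart, with 1 small U6 RNA gene between them.

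The balance of the subunits differed between the groups. Per length of the gene's exons (RPKM, which is CPM per kilobase), Gucy1a1 stood at 0.735, 0.589 and 0.561 of Gucy1b1 in the siRNA_ANK libraries, against 0.222, 0.248 and 0.232 in the controls. Every siRNA_ANK ratio was more than double any control ratio, and Gucy1a1 stayed the lower of the pair in all 6 libraries. The log2 ratio differed by 1.42 (exact permutation test over libraries, two-sided, p = 0.1, the smallest that 3 against 3 libraries allow). This ratio within a library does not depend on the scaling between libraries. The other soluble cyclase alpha gene, Gucy1a2, was 1 of 7 further guanylyl cyclase symbols looked up. Of these, 6 matched a row and 0 passed the filter on low counts.

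The row described as cGMP-dependent protein kinase 1, the main effector of cGMP in smooth muscle, was 20.6, 22.7 and 16.0 CPM in siRNA_ANK, against 15.2, 14.2 and 16.5 CPM in the controls. siRNA_ANK replicate 3 fell inside the control range. The row (ENSRNOG00000053728, chromosome 1, 228408947 to 229639080, minus strand) had a log2 fold change of 0.37 ± 0.12 and passed the test (edgeR adjusted p = 0.0258). Leaving out negative control replicate 1 or 2 ended that call (adjusted p = 0.0814 and 0.0935), as did leaving out siRNA_ANK replicate 1 or 2 (adjusted p = 0.0959 and 0.131). The span of this long gene contains Cstf2t on the opposite strand, with 1981 counts over the siRNA_ANK libraries and 1873 over the controls. Only the spans were compared, and whether exons of the 2 genes overlap was not examined. Where exons do overlap, reads cannot be told apart without a stated strand setting. Prkg2, the gene of the second kinase of this kind, had 3 counts in all 6 libraries together.

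Among the natriuretic peptide receptors the change was concentrated in the clearance receptor. Npr3 (ENSRNOG00000019184, chromosome 2, 60870594 to 60932955, minus strand) was 100, 103 and 81.7 CPM in siRNA_ANK replicates 1, 2 and 3, against 14.0, 16.6 and 11.7 CPM in the negative controls. Each siRNA_ANK library held far more of it than any control, at means of 95.0 ± 11.6 and 14.1 ± 2.42 CPM. It was 6.72-fold higher (log2 fold change 2.75 ± 0.13, edgeR adjusted p = 6.15e-08).

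The receptor cyclases moved little. Npr2 (ENSRNOG00000015991, chromosome 5, 57883171 to 57901580, plus strand), the receptor of C-type natriuretic peptide, was 85.4, 88.1 and 82.7 CPM in siRNA_ANK, against 75.8, 74.3 and 76.9 CPM in the controls. The groups were close but did not overlap (1.13-fold, log2 fold change 0.17 ± 0.06, edgeR adjusted p = 0.0238). This call was lost by DESeq2 (adjusted p = 0.0851), without any 1 of the 3 controls (adjusted p between 0.0587 and 0.0856) and without siRNA_ANK replicate 1 or 2 (adjusted p = 0.0731 and 0.0917). Npr1 (ENSRNOG00000014684, chromosome 2, 175934181 to 175949505, minus strand), the receptor of atrial and B-type natriuretic peptide, was 17.6, 16.6 and 16.1 CPM in siRNA_ANK, against 16.8, 16.7 and 15.2 CPM in the controls. Its groups overlapped, and the log2 fold change was 0.05 ± 0.09 (edgeR adjusted p = 0.736).

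Per length, Npr3 was the most abundant of the 3 receptor genes in siRNA_ANK cells and Npr2 in the controls. Npr3 made up 64.4%, 64.6% and 60.6% of the summed RPKM of the 3 receptor genes in siRNA_ANK libraries, against 21.9%, 25.3% and 19.1% in the controls. Npr2 made up 31.4% ± 1.98 in siRNA_ANK and 65.6% ± 3.26 in the controls, and Npr1 5.39% ± 0.359 and 12.3% ± 0.348 (SD, n = 3 each). The groups did not overlap in any of these 3 shares. The summed RPKM of the 3 receptors was 79.1, 81.2 and 68.6 in siRNA_ANK, against 32.4, 33.3 and 31.2 in the controls.

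Of the 4 phosphodiesterase members Pde5a, Pde1a and Pde1c rose, and Pde3a did not pass the test. Pde5a (ENSRNOG00000014443, chromosome 2, 210858063 to 210999701, plus strand) encodes the cGMP-specific enzyme that sildenafil inhibits. It was 50.2, 54.6 and 38.8 CPM in siRNA_ANK, against 22.5, 23.6 and 22.0 CPM in the controls. The controls were tightly grouped and all 3 siRNA_ANK values lay above them (2.11-fold, log2 fold change 1.08 ± 0.11, edgeR adjusted p = 9.16e-06). Pde1a (ENSRNOG00000054212, chromosome 3, 64747269 to 65024874, minus strand) encodes a phosphodiesterase switched on by calcium and calmodulin. It was 17.4, 13.8 and 12.4 CPM in siRNA_ANK, against 4.61, 6.33 and 4.74 CPM in the controls. Here too the groups were apart (2.77-fold, log2 fold change 1.47 ± 0.16, edgeR adjusted p = 6.74e-06).

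Pde1c (ENSRNOG00000012337, chromosome 4, 85300858 to 85863219, minus strand), a calmodulin-dependent enzyme that cleaves cAMP as well as cGMP, was scarce. It had 52, 41 and 35 counts in siRNA_ANK, against 21, 17 and 17 counts in the controls, which is 2.59 ± 0.467 and 1.07 ± 0.102 CPM. The counts were higher in every siRNA_ANK library (2.41-fold, log2 fold change 1.27 ± 0.27, edgeR adjusted p = 0.00177). Pde3a (ENSRNOG00000025042, chromosome 4, 174172868 to 174438274, plus strand) encodes an enzyme that cleaves cAMP and is inhibited by cGMP. It was 59.0, 60.0 and 46.6 CPM in siRNA_ANK, against 44.9, 53.1 and 40.8 CPM in the controls. siRNA_ANK replicate 3 lay below negative control replicate 2, and Pde3a did not pass (log2 fold change 0.25 ± 0.11, edgeR adjusted p = 0.106). It passed without negative control replicate 2 (0.36, adjusted p = 0.0197) and without siRNA_ANK replicate 3 (0.36, adjusted p = 0.00309).

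**Figure D2:**
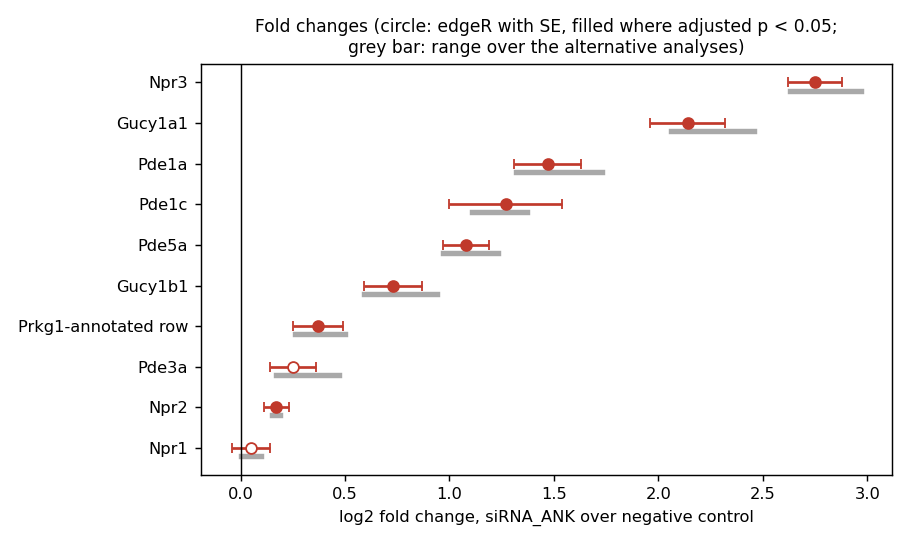
Log2 fold change of each gene, siRNA_ANK over negative control: circles with SE are the edgeR values, filled where the adjusted p is under 0.05, and grey bars span the alternative analyses. Npr3 (2.75) and Gucy1a1 (2.14) stand at the top and Npr1 (0.05) at the bottom.

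Within the phosphodiesterases the make-up also differed. Pde3a held 39.7%, 40.2% and 40.8% of the summed RPKM of the 4 genes in siRNA_ANK, against 56.0%, 57.7% and 54.0% in the controls. Pde5a held 42.4% ± 1.94 in siRNA_ANK and 33.6% ± 2.17 in the controls, Pde1a 15.7% ± 1.85 and 9.32% ± 0.831, and Pde1c 1.62% ± 0.195 and 1.12% ± 0.188 (SD, n = 3 each). The groups did not overlap in any of these 4 shares either. Over all 7 shares of both families the exact permutation p was 0.1, also when adjusted, which is the smallest this design allows. The shares of a family sum to the whole and are not independent of each other. The summed RPKM of the 4 phosphodiesterases was 30.5, 30.6 and 23.4 in siRNA_ANK, against 16.5, 18.9 and 15.5 in the controls.

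**Figure D3:**
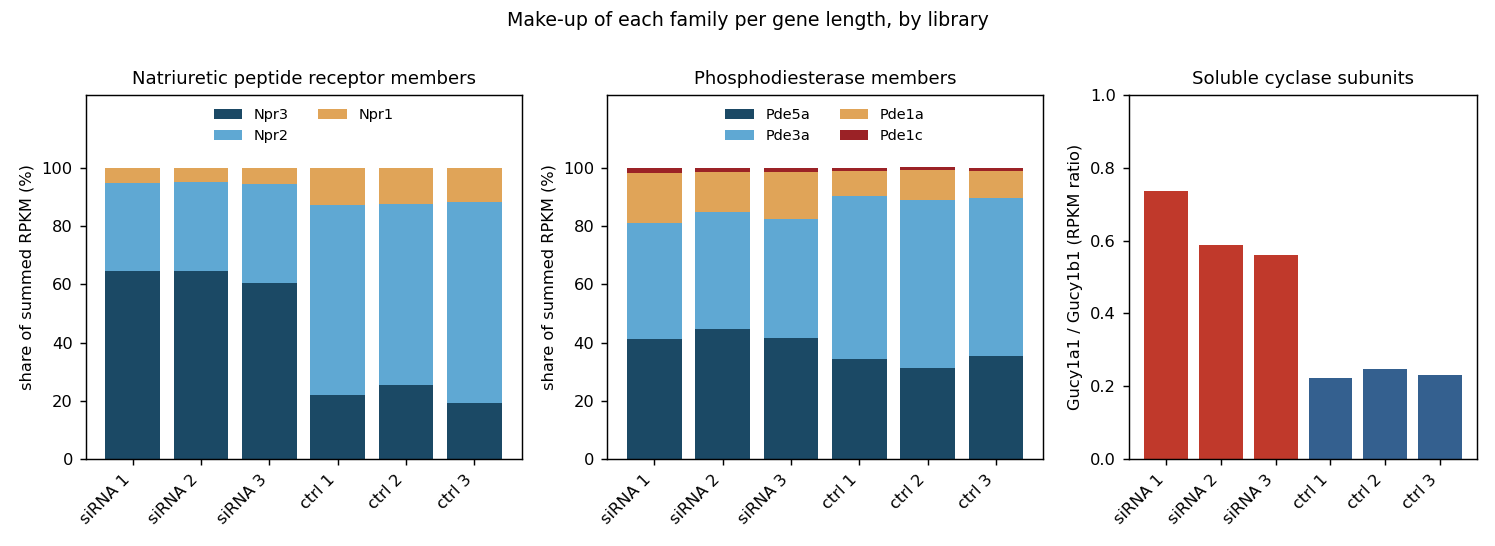
Share of each gene in the summed RPKM of its family, by library (left and middle, in percent), and ratio of Gucy1a1 to Gucy1b1 in RPKM (right); siRNA_ANK libraries stand left of the controls. Npr3 takes 60.6% to 64.6% of the receptor sum in siRNA_ANK and 19.1% to 25.3% in the controls, and the subunit ratio is 0.561 to 0.735 against 0.222 to 0.248.

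Ordered by RPKM, the members in siRNA_ANK cells ran from Npr3 (48.3 ± 5.89) and Npr2 (23.9 ± 0.757) through Pde5a (12.0 ± 2.04), Pde3a (11.3 ± 1.54), Gucy1b1 (5.40 ± 0.887), Pde1a (4.41 ± 0.781), Npr1 (4.10 ± 0.190) and Gucy1a1 (3.39 ± 0.650) to Pde1c (0.456 ± 0.0821). In that order the neighbours Pde5a and Pde3a, Gucy1b1 and Pde1a, and Pde1a and Npr1 overlapped between libraries. In the controls Npr2 led (21.2 ± 0.361), followed by Pde3a (9.51 ± 1.28), Npr3 (7.17 ± 1.23) and Pde5a (5.69 ± 0.207). There Npr1 (3.97 ± 0.214) and Gucy1b1 (3.26 ± 0.446) came next, then Pde1a (1.59 ± 0.291), Gucy1a1 (0.765 ± 0.146) and Pde1c (0.189 ± 0.0179), and Pde3a overlapped Npr3 and Npr1 overlapped Gucy1b1.

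Among the siRNA_ANK libraries, replicate 3 had the lowest value in all 7 members that rose, as it had in 60.9% of the 2594 genes called higher over the whole table. It was also the library with the most Ankh left. Among the controls, replicate 2 had the highest value in 5 of the 7, Pde1c and Npr2 being the exceptions, and in 58.6% of all genes called higher. Without both of these libraries, the pair nearest to the other group, more genes were called in the whole table (3007 higher and 3049 lower, or 22.9% and 23.3%, in place of 2594 and 2629). In that setting 8 members were higher, and the log2 fold changes of Npr3 and Gucy1a1 were 2.97 and 2.46. Leaving out the libraries nearest to the other group widens the difference between the groups by design. These larger values are therefore no support for the calls. The part of the remaining Ankh in these differences was not tested.

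Transcripts of the nitric oxide synthase and natriuretic peptide genes were nearly absent from these cells. Nitric oxide and the peptides themselves were not measured. Nos1 and Nos2, which encode the neuronal and inducible nitric oxide synthases, had 0 counts in every library, which allows up to 0.0610 CPM over the siRNA_ANK libraries and 0.0586 CPM over the controls (3 counts, counting error only). Nos3, the endothelial enzyme, had 1, 1 and 4 counts in siRNA_ANK, against 1, 0 and 4 in the controls. Nppa, the gene of atrial natriuretic peptide, had 0 counts in siRNA_ANK and 1 over the controls, and Nppb, of B-type natriuretic peptide, 0 and 3. Nppc, of C-type natriuretic peptide, had 7, 10 and 4 counts in siRNA_ANK, against 0, 2 and 1 in the controls. These few counts were below the filter for testing, and over the groups the ratio was 7.28 (95% exact counting interval 2.17 to 38.1, counting error only).

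Of 25 listed genes around nitric oxide supply 19 were tested, of which 5 rose and 5 fell, with a median log2 fold change of 0.14. These counts are close to the shares over all genes tested (19.9% higher and 20.2% lower), and nothing is read from them about the list. Ddah1, whose enzyme breaks down an endogenous inhibitor of nitric oxide synthase, rose to 187 ± 12.7 CPM, against 122 ± 10.9 CPM in the controls (1.52-fold, edgeR adjusted p = 1.13e-05). Arg1, an arginase that uses the same substrate as the synthases, was 9.38 ± 1.22 CPM in siRNA_ANK and 3.47 ± 0.836 CPM in the controls (2.69-fold higher). The arginine transporter gene Slc7a1 and Asl, the gene of argininosuccinate lyase, which makes arginine, were 1.29-fold and 1.38-fold lower. Slc7a2, another arginine transporter gene on this list, was called higher (log2 fold change 0.63 ± 0.16). Ass1 was also called lower (log2 fold change -2.89 ± 0.66), and its SE was the largest among the tested genes of all lists. Without negative control replicate 1 or 3, 3 genes of this list were higher instead of 5. Of 8 listed natriuretic peptide and processing genes 4 were tested, and the one with a call in all 16 alternatives was Ide, the insulin-degrading enzyme, which also cleaves natriuretic peptides, at 111 ± 15.0 CPM in siRNA_ANK and 188 ± 9.82 CPM in the controls (1.69-fold lower, edgeR adjusted p = 2.12e-05). Furin (lower, adjusted p = 0.0322), Corin (higher, adjusted p = 0.0420) and Mme, the gene of neprilysin (higher, adjusted p = 0.0481), passed by little. Furin lost its call when negative control replicate 1 or 3 or siRNA_ANK replicate 2 was left out (adjusted p = 0.118, 0.0993 and 0.0612). Corin lost it without any 1 of 4 libraries, siRNA_ANK replicates 1 and 2 and negative control replicates 1 and 3 (adjusted p = 0.0501 to 0.167), and Mme without any 1 of the 6 libraries (adjusted p = 0.0579 to 0.183).

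Few other enzymes of cGMP turnover had enough counts to be tested. Of 12 further cGMP phosphodiesterase genes and their subunits 4 were tested, and 0 were called in either direction, with 1 lower and 0 higher at an unadjusted p under 0.05 and 0 called by DESeq2. Pde3b, the most abundant of them, was 17.0 ± 1.16 CPM in siRNA_ANK and 18.1 ± 0.466 CPM in the controls. Pde10a was called lower without negative control replicate 1, and Pde2a without siRNA_ANK replicate 3. None of the 6 other guanylyl cyclase genes in the files passed the filter. DESeq2, and edgeR with no filter beyond 1 count, each called 1 of them lower and 0 higher. Gucy2c, the receptor of guanylin peptides, is outside the rule for named genes and is given for its values: it had 0 counts in all siRNA_ANK libraries and 4, 7 and 11 in the controls, at least 7.05-fold lower against a floor of 3 counts over the group. Abcc4, a transporter that exports cyclic nucleotides, was 29.6, 27.6 and 39.9 CPM in siRNA_ANK, against 101, 85.7 and 99.1 CPM in the controls. The highest siRNA_ANK value was well below the lowest control value (2.95-fold lower, edgeR adjusted p = 2.13e-05). Abcc5, the other exporter on the list, was 51.6 ± 7.27 and 45.1 ± 2.47 CPM and did not pass (adjusted p = 0.111), though it passed without siRNA_ANK replicate 3 (adjusted p = 0.000773).

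Of 20 tested substrates and partners of the cGMP-dependent kinase, 7 were higher and 4 lower, beside 19.9% and 20.2% of all genes tested, and the median log2 fold change was 0.10. Rgs4, a regulator of G protein signalling, was 11.3 ± 2.51 CPM in siRNA_ANK and 1.05 ± 0.331 CPM in the controls (10.9-fold higher, edgeR adjusted p = 1.14e-07). Csrp2, a LIM protein of smooth muscle, was 2.28-fold higher. The inositol trisphosphate receptor genes moved in opposite directions, Itpr1 being 1.51-fold higher and Itpr3 1.65-fold lower. Rgs2, Vasp and Rhoa were also called lower (log2 fold changes -0.29, -0.23 and -0.21). Ppp1r12a, Ppp1r12b and Gtf2i were also called higher (0.33, 0.49 and 0.29). Irag1, whose product links the kinase to the inositol trisphosphate receptor, is named because of its values, not by the rule for named genes. It was 55.8, 54.8 and 36.7 CPM in siRNA_ANK, against 17.8, 26.4 and 14.9 CPM in the controls. The groups did not overlap (2.49-fold higher, edgeR adjusted p = 0.0123), and the call was lost without siRNA_ANK replicate 2 (adjusted p = 0.0539).

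**Figure D4:**
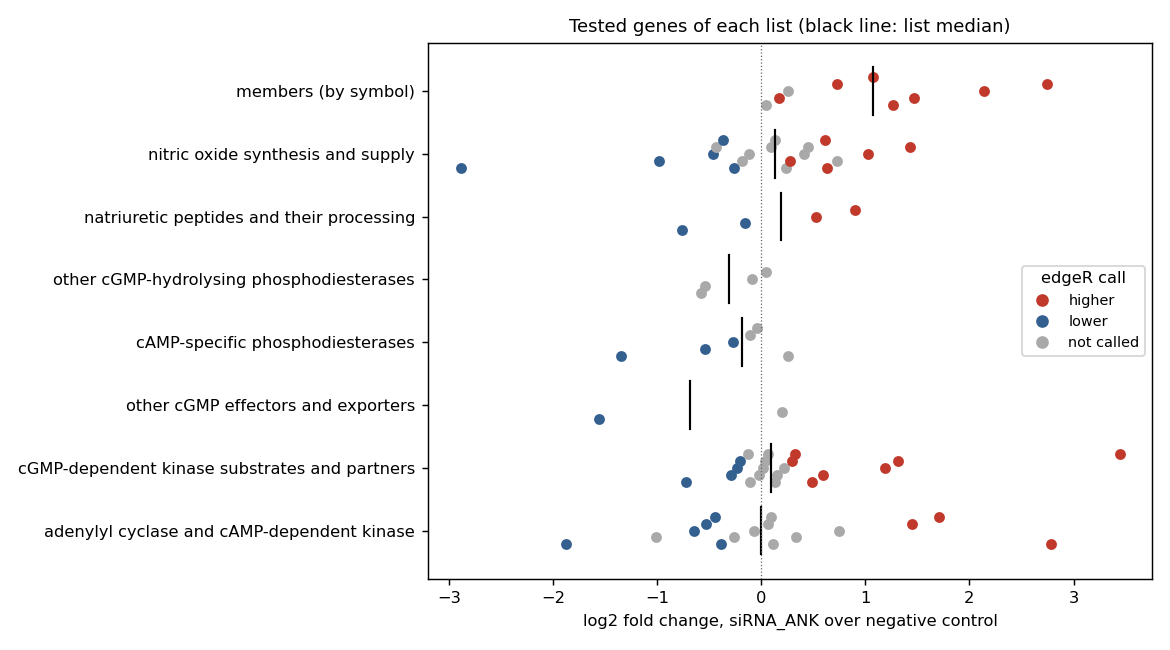
Log2 fold change, siRNA_ANK over negative control, of every tested gene of the members and of 7 further lists; colours give the edgeR call and black lines the list medians. The members' median is 1.08 and those of the other lists lie between -0.68 and 0.19.

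Smooth muscle markers rose alongside these genes. Of 9 such markers 8 rose and 0 fell, and their summed level was 7417 to 8852 CPM in siRNA_ANK and 4092 to 5485 CPM in the controls. Beside these and the marker counts below, 19.9% of all genes tested were higher and 20.2% lower. Acta2, the gene of smooth muscle actin, was 2879 ± 250 and 1343 ± 280 CPM. Of 7 fibroblast markers 6 rose and 0 fell (27613 to 30092 CPM, against 18396 to 20220 CPM, most of it Col1a1). Of 5 pericyte markers 2 rose and 1 fell (2934 to 3042 CPM, against 3194 to 3407 CPM). The endothelial markers Cdh5, Kdr, Tie1 and Emcn were at 0 counts in every library. Of 8 endothelial markers only 2 were tested, and 1 of these, Erg, rose (3.71-fold). The sum of the 8 was 17.1 to 21.8 CPM in siRNA_ANK and 5.18 to 6.96 CPM in the controls. Nearly all of it was Erg, at 15.6 to 20.6 CPM in siRNA_ANK and 4.24 to 6.21 CPM in the controls. Ptprc, Adgre1 and Itgam of 6 macrophage markers and Gp1bb, Pf4 and Ppbp of 6 platelet markers were at 0 as well. The macrophage sum was 11.2 to 14.9 CPM in siRNA_ANK and 24.8 to 28.0 CPM in the controls. Nearly all of it was Cd14, the 1 macrophage marker tested, which fell. The part of these markers in the changes of the cGMP genes was not tested.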

How the data were processed

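The authors deposited raw counts per gene as whole numbers, with 1 file for each library. The submitters' processing notes name featureCounts 1.5.0-p3, DESeq2 and the rat build mRatBN7.2. Aligner, strand setting and read filters: not given in the sources used here. Gene symbols, coordinates and lengths are those in the files. The 385 rows without a symbol held 0.306% to 0.339% of the counts and were kept.

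The counts went through edgeR 4.0.16 (R 4.3.3): filterByExpr (minimum count 10, minimum total 15), TMM factors of 0.979 to 1.02, and its two-sided quasi-likelihood test (robust, without covariates), adjusted by Benjamini-Hochberg over 13016 genes. Calls are at an adjusted p under 0.05. Each SE was obtained by dividing the log2 fold change by the square root of F. RPKM divides TMM-scaled CPM by the gene length in the files. Ratios and shares were compared by exact permutation (SciPy 1.17.1). No pair of replicates agreed within sampling noise (chi-square per degree of freedom 2.83 to 12.3). The steps were tested on simulated counts.

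The members and lists were chosen with earlier results of these data known. Beyond the members and Ankh, the genes named by rule were, per list, up to 4 called genes by smallest adjusted p. They had a mean of at least 1 CPM in either group. Where none was called, the most abundant was named, and the synthase and peptide genes were always named. Gucy2c, Irag1, Abcc5, Pde2a, Pde10a, Slc7a2, Ass1 and the marker genes were picked after their values were seen. So were Rgs2, Vasp, Rhoa, Ppp1r12a, Ppp1r12b, Gtf2i, Adcy3, Adcy7, Adcy8 and Prkar2a. Upstream sequences come from RefSeq (GRCr8). The alternatives were DESeq2 1.42.0, limma-voom (limma 3.58.1), other scalings and filters, the replicate number as a block, a test for changes beyond a fold of 1.2, and fits without single libraries or without the pair nearest to the other group.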

Additional observations from a re-analysis of the deposited data

How the results depend on the processing

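The calls of Npr3, Gucy1a1, Pde1a, Pde5a and Gucy1b1 held in all 16 alternatives, and that of Pde1c in the 15 in which it was tested (it was below the filter at a mean of 5 CPM). The number of members higher stayed between 6 and 8 and the number lower at 0. Among the alternatives, the fit without the pair nearest to the other group favours larger differences by its choice of libraries. Over the 34 genes followed through the settings no fold change turned its direction, and 53 calls of single genes were lost and 8 gained. The marker genes and the genes picked after their values were seen, apart from Irag1 and Abcc5, were not among these 34. Against a fold of 1.2, 1335 genes were higher and 1142 lower, and Npr2 and the row annotated as Prkg1 lost their calls (adjusted p = 1.0 and 0.252), because this test asks for a larger change. Per raw count instead of per length, the differences in share (siRNA_ANK minus control, in percentage points) were 34.8 for Npr3 and -28.0 for Npr2, in place of 41.1 and -34.2, and 0.723 for Pde1c in place of 0.498, because the genes differ in length. Cyclic AMP phosphodiesterase calls depended on single libraries: 3 were lower, 1 without negative control replicate 1 or siRNA_ANK replicate 1, and 0 without negative control replicate 3. The replicate numbers did not pair the libraries: same-numbered deviations correlated at -0.0266, 0.0593 and 0.0437, and not every library correlated best with its own number. With the replicate block 2578 genes were higher and 2631 lower, 8 members were higher, Pde3a passed (0.25, adjusted p = 0.0114) and Mme lost its call (adjusted p = 0.0577). Depth limits the genes with few counts, among them Pde1c, with 17 to 52 counts a library, and those left untested, such as Nos3 and Nppc.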

Other observations

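On the cyclic AMP side of cyclic nucleotide signalling, 3 of 16 tested genes of adenylyl cyclases and cAMP effectors rose and 5 fell, with a median log2 fold change of -0.00. Over all genes tested 19.9% were higher and 20.2% lower. Adcy2 was 7.85 ± 0.939 CPM in siRNA_ANK and 1.13 ± 0.217 CPM in the controls (SD, n = 3 each; 6.90-fold higher, edgeR adjusted p = 1.68e-07). Adcy5 was 31.4 ± 5.52 CPM in siRNA_ANK and 9.57 ± 0.961 CPM in the controls (3.27-fold higher). Rapgef3, whose product EPAC1 is a cAMP-activated exchange factor, was 2.74-fold higher, while Adcy4 was 1.57-fold lower. The largest fall on this list was that of Adcy8 (log2 fold change -1.88 ± 0.18). Prkar2a, Adcy7 and Adcy3 were also called lower (log2 fold changes -0.53, -0.44 and -0.39). Of 6 tested rows of cAMP-specific phosphodiesterases 0 rose, also at an unadjusted p under 0.05 and by DESeq2, and 3 fell by edgeR against 1 by DESeq2. These were Pde8a at 25.6 ± 2.52 CPM in siRNA_ANK and 31.0 ± 1.36 CPM in the controls (adjusted p = 0.0199), Pde4d (adjusted p = 0.0287) and Pde4c (adjusted p = 0.0496), whose symbol stands on 2 rows of the files and whose counts are therefore uncertain.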
